A study of Mus musculus with 26 samples.

Results

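The CpGs described here lie at the 3′ end of the CTCF motif, at positions 17 to 19 of the 19 bp JASPAR matrix MA0139.1. They were chosen from the deposited methylation table of merged CTCF M-ChIP replicates as the cytosines with at least 5 reads that fall at these positions of a motif match, counted along the motif's own strand. There were 3587 such cytosines among 35385 measured cytosines in motifs, or 10.1%, and they lay in 2402 of 15972 motif matches with a measured cytosine. A further 1257 cytosines at these positions had fewer than 5 reads and were left out. The next CpGs towards the motif's middle are C12, at positions 15 and 16, and, near the 5′ end, C2, at positions 5 and 6.

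All samples used here came from mESC of the KH2 line, mouse embryonic stem cells cultured on irradiated feeder cells, which pre-plating removed before use. In M-ATAC (4 samples) Tn5 transposase loaded with methylated adaptors cut accessible chromatin, and in CTCF M-ChIP (2 samples) it cut chromatin immunoprecipitated with a CTCF antibody, before bisulfite conversion in both cases. The controls were unconverted libraries with the methylated adaptors (CTCF M-ChIP-NC and M-ATAC-NC) and libraries made with Nextera adaptors (ATAC and CTCF ChIP), with 2 samples each. By the paper's account the unconverted libraries were aliquots kept before conversion, so they share material with converted ones. In addition, 2 RNA-seq samples of WT mESC were merged by the authors. Which M-ATAC samples make up the merged M-ATAC peaks and methylation table is not given in the sources used here. Libraries for the factor KLF4 were not used here.

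CTCF is a zinc finger protein that binds insulators and the anchors of chromatin loops, and its long motif is read by an array of fingers. Cytosine methylation inside the motif is known to reduce binding at some positions and to be tolerated at others. The ends of the motif are less constrained than its core, and a CpG can fall at the 3′ end in several registers.

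The consensus of the 43074 deposited motif matches is shown first, with positions 17 to 19 in capitals. It holds no CpG at its end.

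Consensus: tggccagaagagggcgCCA

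In the reference genome (GRCm38) 2929 matches, or 6.80%, carried a CpG that touches positions 17 to 19, against 31.1% with C12 and 5.51% with C2. The CpG spanned positions 16/17 in 79 matches, 17/18 in 646, 18/19 in 1235 and 19/20 in 1066. Each register is represented by the measured match with the highest motif score in each, over positions 1 to 20, with the CpG in capitals.

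Register 16/17, chr9:119970362-119970380, minus strand, intron of Cx3cr1: tgaccaccagggggcCGagg
Register 17/18, chr11:36526584-36526602, minus strand, intron of Tenm2: cggccaccagagggcgCGag
Register 18/19, chr8:120078230-120078248, minus strand, intron of Gm20388: tggccaccagggggcgcCGg
Register 19/20, chr2:180347305-180347323, minus strand, intergenic: tggccaccagggggcgccCG

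Because each strand of a CpG was read on its own, position 18 holds the opposite-strand cytosine of 17/18 and the motif-strand cytosine of 18/19. Position 19 holds the opposite-strand cytosine of 18/19 and the motif-strand cytosine of 19/20, and the partner of the latter lies outside the motif. The 3587 cytosines were made up of 51 of 16/17, 1003 of 17/18, 1707 of 18/19 and 826 of 19/20.

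Over all measured cytosines, which lie in different motif matches, methylation at the motif end differed between registers. It was highest at 18/19, where the mean over cytosines was 22.4% and 3383 of 18373 pooled reads were methylated (18.4%, Wilson 95% interval 17.9 to 18.98). At 17/18 the mean was 7.04% and at 19/20 it was 8.75%, with pooled levels of 5.62% (5.22 to 6.06) and 7.04% (6.54 to 7.58). C12 stood between them, with a mean of 14.9% and a pooled level of 12.2% (12.1 to 12.4), and C2 was lowest, with a mean of 3.18% and a pooled level of 2.68% (2.53 to 2.84). The few 16/17 cytosines, all on the opposite strand at position 17, had a mean of 18.7% over only 452 reads. The motif-strand cytosines of 16/17 lie at position 16, outside positions 17 to 19, and had a mean of 8.33% over 430 reads. The value of 18.7% is therefore not a level of both strands. These intervals cover counting error of reads only, since replicates were merged before the table was made and the values have no replicate spread.

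The mean at 18/19 exceeded that at C12 by 7.47 percentage points, and it was higher on 19 of 20 chromosomes. It exceeded 17/18 by 15.3 points and 19/20 by 13.6 points, on 20 of 20 chromosomes in both cases. By contrast the difference of 17/18 from C12 was -7.87 points, and 17/18 was above C12 on only 1 of 20 chromosomes. The 17/18 and 19/20 CpGs differed by 1.71 points, with 19/20 higher on 13 of 20 chromosomes, so that their order was not stable over the genome. The values of 19/20 come from the motif strand only, and those of 17/18, 18/19, C12 and C2 from both strands.

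**Figure D1:**
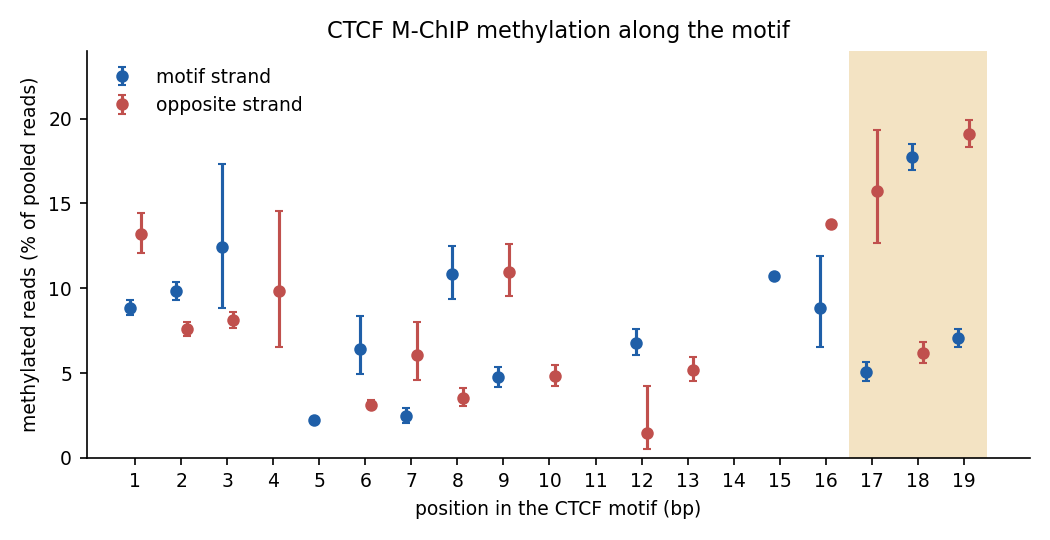
Methylated reads as a percentage of pooled reads at each position of the CTCF motif (x axis, bp), for the motif strand (blue) and the opposite strand (red), in merged CTCF M-ChIP. Bars are Wilson 95% intervals, cells with fewer than 20 cytosines are left out, and the shaded band marks positions 17 to 19. Within the band the 2 cytosines of 18/19 stand at 17.7% and 19.1%, above those of 17/18 (5.08% and 6.17%) and of 19/20 (7.04%).

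Taken over all registers, the cytosines at positions 17 to 19 had a mean methylation of 14.9%, against 12.2% at all other motif positions. Most were unmethylated: 2192 (61.1%) had no methylated read, 2672 (74.5%) were low (below 20%), 783 (21.8%) were intermediate (20 to 80%) and 132 (3.68%) were high (above 80%). Over all motif cytosines 2.13% were high and 20.4% were intermediate. Of the 132 high cytosines 97 belonged to 18/19, where they made up 5.68%, while 1.60% of 17/18 and 1.94% of 19/20 cytosines were high. Percentages pool cells and alleles, so that fewer methylated cells and fewer methylated alleles per cell cannot be told apart.

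The median cytosine at positions 17 to 19 had 10 reads, and the deepest had 77. At the read limit the 396 cytosines with 4 reads, just outside it, had a mean methylation of 24.3% and a median peak fold of 8.04, and the 404 cytosines with 5 reads, just inside it, had 23.9% and 8.87. Cytosines with few reads were thus more methylated than the rest, and with at least 10 reads the mean was 9.49%. Depth moved with peak strength (Spearman rho of reads and fold 0.593 over the 3587 cytosines, which share libraries), and the part of depth in the level of methylation was not tested.

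The cytosines with the highest lower bound of methylation at each position follow, with the motif-end CpG in capitals. All of their reads were methylated.

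Agfg2 intron, chr5:137654932-137654950, minus strand, 17/18: acgccacatggtggtgCGcc
Cep112 intron, chr11:108625996-108626014, minus strand, 17/18: tgacctctaggggcagCGga
Gm31718 intron, chr8:126813816-126813834, minus strand, 18/19: aggccagaagatggcgaCGg
Syn3 intron, chr10:86056471-86056489, plus strand, 18/19: aggccaggagagggtgaCGg
Alpk1 intron, chr3:127741668-127741686, plus strand, 18/19: cagccagaagagggcatCGg
Intergenic, nearest start Gm13323, chr2:17832914-17832932, plus strand, 18/19: agaccagaagagggcatCGg

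In the intron of Alpk1, which encodes an alpha-kinase, 12 of 12 reads were methylated (Wilson 95% interval 75.8 to 100). CTCF ChIP gave this motif a fold of 11.1 and 18.5 in its 2 samples, CTCF M-ChIP gave 7.53 and 13.7, and CTCF M-ChIP-NC gave 5.72 in sample 2 and no peak in sample 1. The intergenic match near Gm13323 had 10 of 10 methylated reads, folds of 11.2 and 16.7 in CTCF ChIP, and no peak in CTCF M-ChIP-NC sample 1. In the intron of Gm31718 10 of 10 reads were methylated, C12 of the same motif was also methylated in 8 of 9 reads, and the motif lay in a peak of all 6 CTCF samples, with folds from 7.78 in CTCF M-ChIP to 19.8 in CTCF ChIP. In the intron of Syn3, which encodes synapsin III of synaptic vesicles, 9 of 9 reads were methylated and the CTCF ChIP folds were 18.03 and 18.7. The Syn3 match had no peak in CTCF M-ChIP sample 2 or in CTCF M-ChIP-NC sample 1. All 4 lay in a peak of both CTCF ChIP samples, as did 97.3% and 99.5% of all 2402 motif matches in samples 1 and 2, since the matches were taken from CTCF M-ChIP peaks. The matches in Alpk1 and Syn3 and near Gm13323 lay in repeats, where methylation was higher in general, as described below. The match in Gm31718 did not.

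The 17/18 pair was weaker. In the intron of Agfg2 8 of 8 reads were methylated (67.6 to 100), the CTCF ChIP folds were 5.41 and 5.73, and neither CTCF M-ChIP sample had a peak there. In the intron of Cep112, a centrosomal protein gene, 6 of 6 reads were methylated (61.0 to 100) and the folds were 9.29 and 14.7 in CTCF ChIP and 7.32 and 4.95 in CTCF M-ChIP. With 6 to 12 reads each, these levels are imprecise.

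The cytosines with the most reads among those with no methylated read are shown for comparison.

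Acbd4 UTR, chr11:103102812-103102830, plus strand, 17/18: tttccaccagggggcgCGag
Intergenic, nearest start Gm24648, chr17:87044625-87044643, minus strand, 17/18: cagccactaggtggcgCGaa
Gdf15 exon, chr8:70629892-70629910, minus strand, 18/19: ccgccggcagggggcgcCGa
Intergenic, nearest start Gins4, chr8:23237842-23237860, plus strand, 19/20: cggccacgtgggggcgttCG
Intergenic, nearest start Adck5, chr15:76576293-76576311, minus strand, 19/20: cggccccttgaggtcgccCG

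At Gins4, which encodes a subunit of the replicative helicase, the 19/20 cytosine lay 192 bp from a transcription start and had 0 methylated of 63 reads, which allows a level of up to 4.76% if the limit for a count of 0 is set at 3 reads of the total. C12 of the same motif had 0 of 101 reads methylated, M-ATAC had 0 of 14 at the same cytosine, and the folds were 28.1 and 31.9 in CTCF ChIP and 27.4 and 15.3 in CTCF M-ChIP. At Adck5, 56 bp from a start, 0 of 43 reads were methylated (up to 6.98%). In the exon of Gdf15, a secreted growth factor gene, 0 of 38 reads were methylated (up to 7.89%). The match near Gm24648 filled 2 places, with 0 of 32 reads at position 17 and 0 of 36 at position 18, and in the UTR of Acbd4 the count was 0 of 35 reads. All 5 of these motifs also hold C12, and their CTCF ChIP folds ran from 22.6 to 35.05. They were chosen for their many reads, which go with high folds, so their folds are not a comparison with the methylated cytosines.

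The register comparison was repeated at matched numbers of CpGs, because most motif ends were accompanied by another CpG: the motif-end CpG was alone in 971 of the 2402 motif matches and had company in 1431. Methylation was lower with each added CpG in all 3 main registers. At 18/19 the mean was 31.3% where it was the only CpG of the motif (863 cytosines), 17.6% with 2 CpGs, 5.76% with 3 and 0.682% with 4 or more. At 17/18 the same series ran 17.8%, 6.16%, 2.63% and 1.82%, and at 19/20 it ran 14.9%, 7.80%, 2.50% and 1.21%. C12 went from 18.02% to 1.33% and C2 from 4.51% to 1.43%.

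Where it was the only CpG, 18/19 still stood above C12 by 13.3 points, on 19 of 20 chromosomes. In contrast the gap between 17/18 and C12 closed: the difference was -0.21 points, with 17/18 above on 9 of 20 chromosomes. The difference of 19/20 from C12 was -3.12 points, with 19/20 above on 8 of 20 chromosomes. Only the motif strand of 19/20 was measured, while C12 and C2 pool both strands. Over all C12 cytosines the mean was 12.9% on the motif strand and 16.9% on the opposite strand. The part of the strand in the differences of 19/20 was not tested. All 3 registers lay above C2 when alone, by 13.3 points for 17/18 (17 of 20 chromosomes) and 10.4 points for 19/20 (19 of 20 chromosomes).

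**Figure D2:**
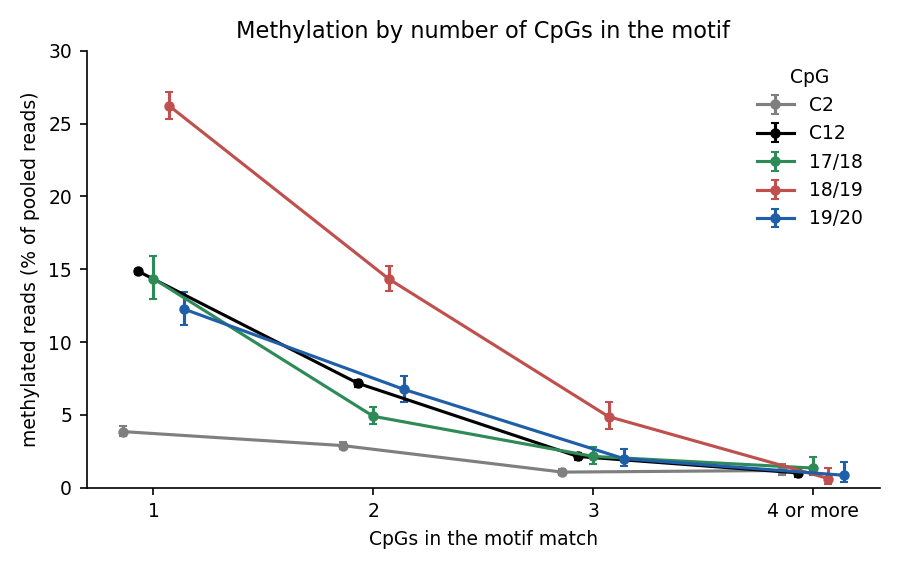
Methylated reads as a percentage of pooled reads (y axis) by the number of CpGs in the motif match (x axis), for C2, C12 and the motif-end CpGs 17/18, 18/19 and 19/20. Points are pooled reads and bars are Wilson 95% intervals. Lone 18/19 CpGs stand at 26.2%, above lone C12 at 14.9%, and with 4 or more CpGs the 5 kinds lie between 0.638% and 1.36%.

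The same order was seen over a wider window of 79 bp, the motif and 30 bp on each side. Motif-end cytosines averaged 33.1% where the window held 1 CpG (561 cytosines), 21.2% with 2 to 3, 7.37% with 4 to 6 and 1.33% with 7 or more. For 18/19 the values were 41.1%, 27.8%, 11.5% and 1.72%.

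Repeats were a separate layer. The deposited list writes part of its matches in lower case, the convention for soft-masked repeats, and 435 of the 3587 cytosines (12.1%) lay in such matches, close to the 12.6% of all other motif cytosines. Their mean methylation was 36.8%, against 11.9% outside repeats. In repeats 18/19 reached 40.8%, 17/18 29.1% and 19/20 27.2%, while outside them the values were 18.4%, 5.73% and 7.01%. Outside repeats 18/19 was above C12 on 20 of 20 chromosomes, by 6.65 points.

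The base before the 18/19 CpG split it further. With T at position 17 the mean was 41.6% over 466 cytosines, against 15.2% over 1241 cytosines with another base, and the T matches were higher on 19 of 20 chromosomes. T was set apart as the base with the highest mean in these same data, so the chromosome count is no independent check of that choice. With A, C and G the means were 13.2%, 14.4% and 16.8%. Cytosines with a base other than T thus stood near the mean of all C12 cytosines, 14.9%. Outside repeats and as the only CpG of the motif they averaged 21.1%, against 14.6% for such C12 cytosines. High cytosines made up 12.4% of those with T and 3.14% of the others. Among the commonest motif ends, read from position 15 to 20, the 94 motif-strand cytosines in CATCGG averaged 48.9% and the 56 in CGTCGG averaged 37.2%, while the 64 in CGCCGC averaged 4.57%. Other ends without T lay between, such as CGCCGG at 11.9% and CAGCGT at 19.8%. The ends differed in more than the base: CATCGG had a median of 1 CpG in 79 bp and 51.1% in repeats, CGCCGC 7.5 CpGs and 1.56%.

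The other CpGs did not share 1 order of bases. At 17/18 the mean was 18.01% after T (42 cytosines), 16.7% after A, 19.2% after C (18 cytosines) and 4.84% after G (826 cytosines). Before 19/20 the T matches had the lowest mean of the 4 bases (5.31% over 244 cytosines, against 11.9% after C). At C12 the mean was 6.16% after T and 15.3% after another base, while for the CpG that starts at position 7 it was 10.6% after T (45 cytosines) and 3.597% after another base.

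Several properties moved with the T at position 17, and their part in the difference was not tested. Of the T cytosines 40.3% lay in repeats, against 9.11% of the others, and 14.8% lay in merged M-ATAC peaks, against 48.0%. The 282 T matches held only 166 distinct 19-base sequences, whereas the 731 other matches held 709, so that T matches share sequence and are not independent loci. The sequences found most often are shown, with the CpG in capitals.

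Shared by 30 measured matches: aggccagaagagggcatCG
Shared by 21 measured matches: aggccagaagagggcgtCG
Shared by 12 measured matches: acaccagaagagggcatCG

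These properties were then held, no more than 2 at a time. Outside repeats T cytosines averaged 38.7% and the others 13.4%. Outside repeats and with 18/19 as the only CpG of the motif they averaged 45.4% and 21.1%, and in matches whose sequence occurs once in the deposited list 36.3% and 14.9%. Inside M-ATAC peaks the values were 15.4% over 69 cytosines and 4.69% over 595, and outside them 46.1% over 397 and 24.8% over 646. With 1 CpG in 79 bp and outside repeats they were 50.1% over 87 and 32.2% over 136, with T higher on 14 of 19 chromosomes. With 4 or more CpGs in 79 bp and outside repeats they were 14.8% over 55 and 4.86% over 572, with T higher on only 7 of 13 chromosomes. The first 2 shared sequences had pooled levels of 37.3% (33.3 to 41.5) and 33.5% (29.3 to 38.0), but single cytosines in each ran from 0% to 100%, so 1 sequence was found in all states of methylation.

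Because registers differ in the sites that hold them, positions 17 to 19 were set against C12 in the 1111 motif matches where both were measured. The mean was 8.50% at the motif end and 7.53% at C12, a difference of 0.969 points, with 210 matches higher at the motif end, 193 higher at C12 and 708 equal. Both were low in 939 matches (84.5%). The motif end alone was at 20% or more in 35 matches, C12 alone in 17, and both in 120, so that 77.4% of matches with a methylated end were also methylated at C12. The rank correlation within motifs was 0.687, across matches that share libraries and depth. The table gives each cytosine's reads separately, so methylation of both CpGs on 1 DNA molecule was not measured.

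By register, 18/19 exceeded C12 of the same motif by 2.14 points (16.1% against 13.9%, 366 matches, higher on 18 of 20 chromosomes). Of these matches 97 were higher at 18/19, 72 were higher at C12 and 197 were equal. Over all 18/19 and all C12 cytosines the difference was 7.47 points. The 17/18 CpG differed from C12 by -0.134 points (3.98% against 4.11%, 384 matches, higher on 9 of 20 chromosomes), and 19/20 by 0.787 points (4.996% against 4.21%, 412 matches, 13 of 20 chromosomes). Here too 19/20 was measured on the motif strand only, while C12 was averaged over its measured strands. Beside C2 the motif end averaged 2.86% against 2.36% (359 matches, 12 of 20 chromosomes). Beside all other CpGs of the motif it averaged 8.41% against 7.40% (1398 matches, 285 higher and 298 lower at the end).

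Per motif match, Fisher's exact test (two-sided) of reads at positions 17 to 19 against positions 15 and 16 called 1 of 1151 matches at a Benjamini-Hochberg adjusted p under 0.05, or 0.0869%, and 11 had an unadjusted p under 0.05. In 40 of these matches position 16 belonged to the 16/17 CpG itself. The same test of positions 1 to 14 against C12 called 2 of 2551 (0.0784%). The called match, in an intron of Ell, a gene for an elongation factor of RNA polymerase II, had 14 of 21 reads methylated at 18/19 (66.7%) and 1 of 23 at C12 (4.35%), with an adjusted p of 0.0161 by Fisher's exact test.

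The matches with at least 10 reads at both places and the greatest differences are shown, the first 3 with the motif end above C12 and the last 3 below it, with the motif-end CpG in capitals.

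Ell intron, chr8:70585464-70585482, minus strand: tggccacacaggggcgcCGg
Intergenic, nearest start Pfkl, chr10:78018894-78018912, minus strand: gcgccacctggtggcgacCG
Myo1h exon, chr5:114351680-114351698, plus strand: cctccaggagagggcgtCGa
Lamc3 intron, chr2:31904814-31904832, plus strand: tggccatcaggaggcgCGgt
Etv6 intron, chr6:134248844-134248862, minus strand: gggccgcgagggggcgCGag
F630040K05Rik intron, chr17:45775641-45775659, plus strand: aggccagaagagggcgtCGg

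Near Pfkl, which encodes a phosphofructokinase, 8 of 10 reads were methylated at 19/20 and 7 of 19 at C12. In the exon of Myo1h, a myosin gene, the counts were 9 of 15 at 18/19 and 3 of 16 at C12. In the intron of Lamc3, a laminin gene, 0 of 10 reads were methylated at 17/18 and 6 of 10 at C12, and in the intron of Etv6, which encodes an ETS family repressor, 1 of 11 and 5 of 11. In F630040K05Rik, where the match lay in a repeat, 14 of 28 reads were methylated at 18/19 and 23 of 28 at C12. None of these 5 passed the adjusted test, and they show how far neighbouring CpGs can lie apart at this depth.

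**Figure D3:**
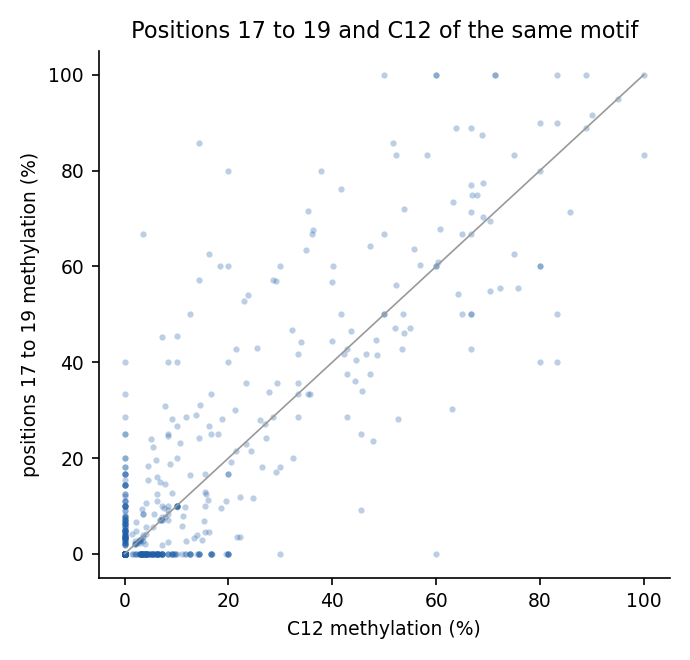
Mean methylation of the cytosines at positions 17 to 19 (y axis, %) against that at C12 of the same motif match (x axis, %) in merged CTCF M-ChIP, with 1 point for each of 1111 matches and the line of equality in grey. Of these matches 939 lie below 20% on both axes, 120 lie at 20% or more on both, and the rank correlation is 0.687.

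The strands of the same CpG were compared where both were read. At 18/19 the motif strand averaged 18.3% and the opposite strand 20.1% over 694 CpGs, with a rank correlation of 0.815, and 15 of them (2.16%) differed by 50 points or more. At 17/18 the means were 5.14% and 6.71% over 418 CpGs. The opposite strand was also the higher at C12 (11.1% and 14.8%) and C2 (2.20% and 3.58%), so this lean was not particular to the motif end. Fisher's exact test called none of 1152 motif-end CpGs and none of all 14459 (0% called), while 15 and 190 had an unadjusted p under 0.05.

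Peak strength was lower where the motif end was methylated. The fold enrichment of the merged CTCF M-ChIP peak, the ratio over local background given by MACS2, had a median of 12.4 (order-statistic 95% interval 12.2 to 12.6) at low cytosines, 10.7 (10.4 to 11.02) at intermediate ones and 8.90 (8.60 to 9.88) at high ones. The classes overlapped widely, with interquartile ranges of 9.53 to 15.3 for low and 7.50 to 11.5 for high cytosines. With the cytosines put into 4 equal bins by fold, mean methylation was 23.0% in the weakest bin (folds of 3.79 to 9.06) and 8.93% in the strongest (14.9 to 49.8). Other motif positions showed a like series of medians, 12.2, 10.3 and 9.57.

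The rank correlation of methylation and fold was -0.146 over the 3587 cytosines, and it was below 0 on 16 of 20 chromosomes. With at least 10 reads per cytosine it was -0.0453. With the fold of single libraries, over the cytosines inside a peak of each, it was -0.169 and -0.0602 in CTCF M-ChIP, -0.0679 and -0.0482 in CTCF M-ChIP-NC and -0.130 and -0.135 in CTCF ChIP, in the order of samples 1 and 2. By register it was -0.212 at 18/19, -0.0839 at 19/20 and -0.0426 at 17/18, beside -0.161 at C12 and -0.00310 at C2. Outside M-ATAC peaks it was -0.176 and inside them 0.0114. These are weak relations, the points share libraries, and read depth fell with methylation as well (rho of reads and methylation -0.161).

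The sign was the same in every CTCF library. Motif matches were split by the mean methylation of their end into 1776 below 20% and 626 at 20% or more, a split made from merged M-ChIP reads, and the fold was then read from each library's own peaks. Each median covers only the matches inside a peak of that library. Of the 626 more methylated matches, 533 and 407 were inside a peak in CTCF M-ChIP samples 1 and 2. The counts were 314 and 445 in CTCF M-ChIP-NC and 590 and 619 in CTCF ChIP. In CTCF M-ChIP the median fold of the low matches was 10.4 and 7.96 in samples 1 and 2, and that of the more methylated ones 8.28 and 7.29. In CTCF M-ChIP-NC the values were 8.15 and 8.67 against 7.37 and 7.89. In CTCF ChIP, whose libraries were prepared without methylated adaptors and were not converted, they were 13.2 and 16.7 against 10.98 and 13.99. The low matches were thus higher in 6 of 6 libraries, by 0.668 to 2.70. Since CTCF M-ChIP-NC libraries were aliquots of M-ChIP material, the 6 libraries are not independent.

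At 18/19 the rank correlation of methylation and fold, over cytosines inside a peak of each library, was between -0.232 and -0.0908 over the 6 CTCF libraries, and at 19/20 between -0.121 and -0.0208. At 17/18 it was between -0.0507 and 0.0576, with both signs.

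**Figure D4:**
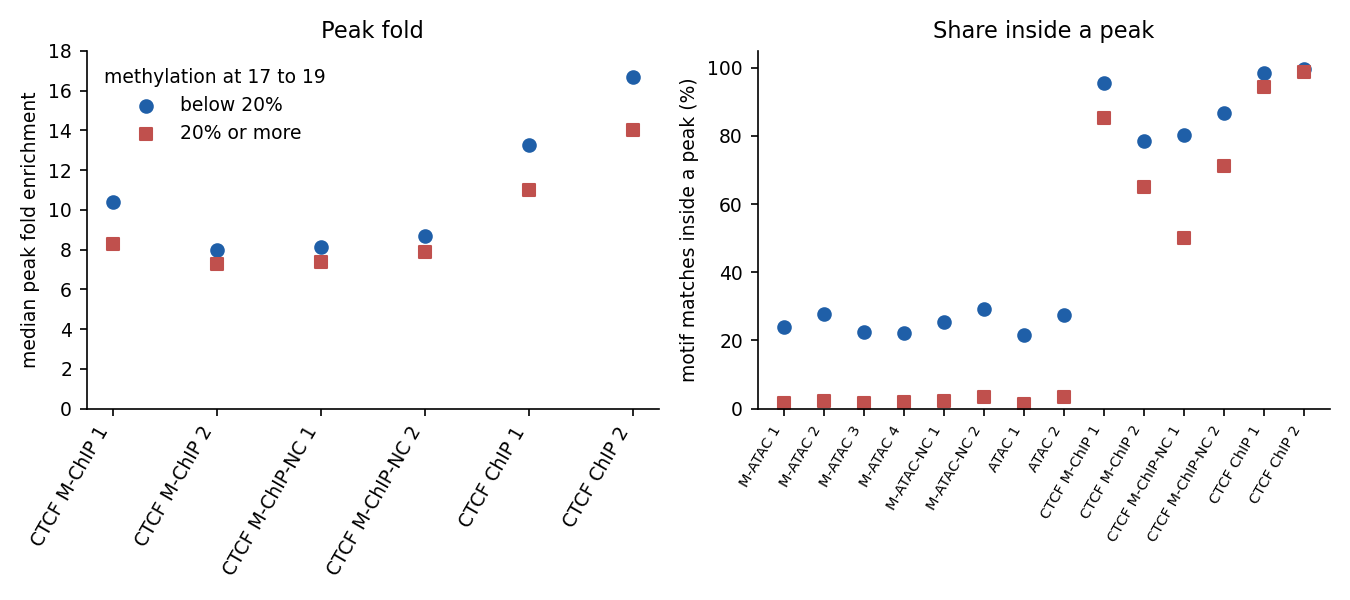
Left, median peak fold enrichment (y axis) in each of the 6 CTCF libraries, for motif matches whose end was methylated below 20% (blue circles) or at 20% or more (red squares). These medians cover only matches inside a peak of the library. Right, the percentage of the same 2 classes of motif matches that lay inside a peak in each of 14 libraries. The low class is higher in every library of both panels. In ATAC-type libraries 1.28 to 3.51% of the more methylated matches lie in a peak, against 21.6 to 29.2% of the low ones.

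The share of matches inside a peak was then read for both classes. In CTCF ChIP 98.4% and 99.8% of low matches and 94.2% and 98.9% of more methylated matches lay inside a peak. In CTCF M-ChIP the shares were 95.6% and 78.6% against 85.1% and 65.0%, and in CTCF M-ChIP-NC 80.4% and 86.8% against 50.2% and 71.1%. The matches were taken from merged M-ChIP peaks with M-ChIP reads, so high shares in CTCF libraries follow from the choice of matches, and it favours the M-ChIP group.

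Over all 2402 matches the share inside a peak was 84.0% ± 12.6 (SD, n = 2) in CTCF M-ChIP, 77.6% ± 7.18 (n = 2) in CTCF M-ChIP-NC and 98.4% ± 1.59 (n = 2) in CTCF ChIP. CTCF M-ChIP was 14.5 points under CTCF ChIP, and every M-ChIP sample lay under both ChIP samples (exact permutation p = 0.333, two-sided, n = 2 against 2, which is the smallest p this design allows, so 0.05 cannot be reached). With at least 10 reads the difference was -5.76 points, and with peaks of −log10 q of at least 5 it was -22.3 points. Against the unconverted controls the difference was 6.35 points (exact permutation p = 0.667), within the spread of the samples. The test treats these 2 groups as independent, although the controls were aliquots of M-ChIP material. The gap in median fold between low and more methylated matches was 1.40 ± 1.04 (SD, n = 2) in CTCF M-ChIP, 2.48 ± 0.315 (n = 2) in CTCF ChIP and 0.778 ± 0.000799 (n = 2) in CTCF M-ChIP-NC, and neither comparison with CTCF M-ChIP passed (exact permutation p = 0.333 for CTCF ChIP and p = 1 for the unconverted controls). With at least 10 reads these differences in the gap were -0.298 and 0.284 (exact permutation p = 1 for both). Adjusted over the 4 comparisons by the Benjamini-Hochberg method the p-values of these exact tests were 0.667 to 1. The gaps in fold compare unlike sets of matches, since the medians of each library cover only the matches inside its own peaks. Libraries of a group are numbered samples, with no label of separate cultures, so the spread may be technical.

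Motif ends in accessible chromatin were mostly unmethylated. Of the 3587 cytosines 1624 (45.3%, Wilson 95% interval 43.6 to 46.9) lay in a merged M-ATAC peak, against 37.7% (37.2 to 38.2) of all motif cytosines. By CpG the share was 54.8% at 17/18, 46.6% at 19/20 and 38.9% (36.6 to 41.2) at 18/19, beside 56.3% at C2 and 30.0% at C12, so a share above that of all motif cytosines was neither common to the 3 registers nor particular to the motif end. The mean methylation of the 1624 in CTCF M-ChIP was 3.73%, and that of the 1963 outside was 24.1%. At 18/19 the means were 5.80% and 32.9%, at 17/18 2.29% and 12.8%, and at 19/20 2.00% and 14.6%. Of the 132 high cytosines 1 (0.758%) lay in an M-ATAC peak, and of the 620 high cytosines at other motif positions 1.45% did. In single libraries 16.9 to 21.1% of the 2402 matches lay in a peak of the 4 M-ATAC samples, and matches with a measured motif end were in a peak more often than other motif matches in 8 of 8 ATAC-type libraries (16.3 to 22.5% against 8.13 to 12.5%).

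CpG number moved with accessibility. At 1 CpG in 79 bp the motif-end mean was 21.5% inside M-ATAC peaks and 35.0% outside, at 2 to 3 CpGs 7.06% and 26.7%, at 4 to 6 CpGs 2.42% and 13.4%, and at 7 or more 0.831% and 3.64%. Methylation was therefore lower inside M-ATAC peaks at each of the 4 CpG numbers.

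**Figure D5:**
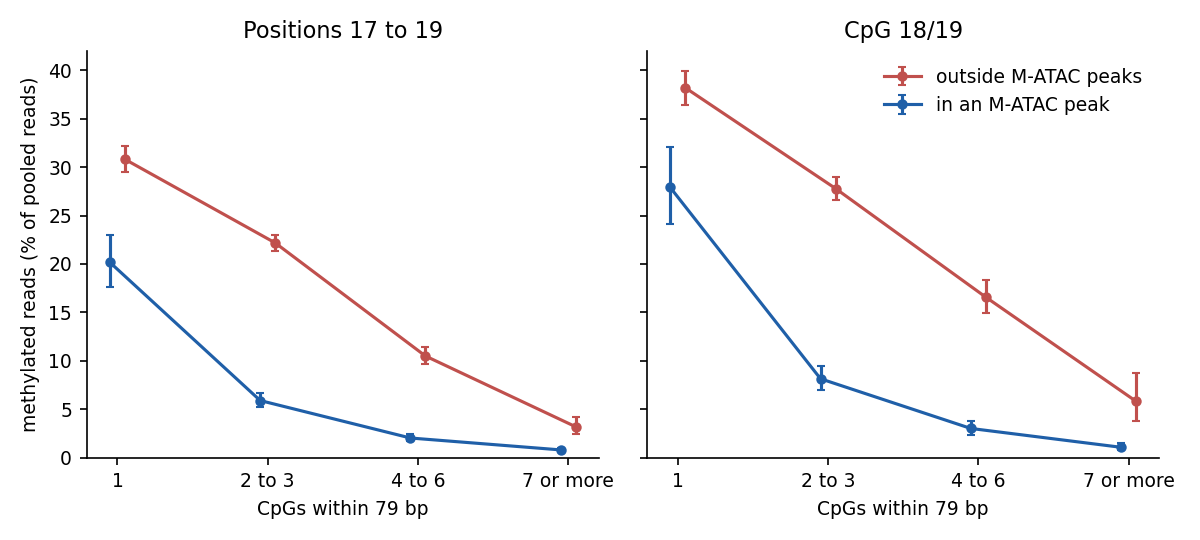
Methylated reads as a percentage of pooled reads in CTCF M-ChIP (y axis) by the number of CpGs within 79 bp (x axis), for all cytosines at positions 17 to 19 (left) and for 18/19 alone (right), inside (blue) and outside (red) merged M-ATAC peaks. Bars are Wilson 95% intervals, and inside M-ATAC peaks the pooled level falls from 20.2% with 1 CpG to 0.818% with 7 or more.

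At 1298 motif-end cytosines both assays had at least 5 reads, and there they gave like levels. The mean was 3.20% in CTCF M-ChIP and 3.01% in M-ATAC, a difference of -0.188 points, with M-ATAC higher at 140, lower at 167 and equal at 991. Pooled levels were 2.87% (2.62 to 3.14) and 2.44% (2.21 to 2.69). At 18/19 the means were 5.16% and 4.69% over 528 cytosines. Fisher's exact test called none of 1271 distinct motif-end cytosines and none of 10066 in all motifs (0% called), and 1 and 20 of them had an unadjusted p under 0.05. These sites are the accessible and mostly unmethylated ones, so the test says little about methylated motif ends.

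By location, 43.4% (41.8 to 45.1) of the cytosines were at most 3 kb away from an annotated start in GENCODE M21, against 39.4% (38.9 to 39.9) of all motif cytosines. The share was 49.1% at 17/18, 45.9% at 19/20 and 39.0% at 18/19, beside 34.1% at C12 and 54.9% at C2. Methylation at 18/19 was 12.6% near starts, 24.6% between genes and 32.9% in gene bodies away from starts. At 17/18 the same means were 3.95%, 6.70% and 14.7%, and at 19/20 they were 4.91%, 9.998% and 14.9%. Register 18/19 was the highest of the 3 in each kind of location.

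The genes with a motif end within 3 kb of their start had a median of 5.85 TPM, a length-normalised transcript level, where it was low (781 genes, order-statistic 95% interval 4.19 to 7.25) and 6.01 TPM where it was at 20% or more (128 genes, 1.88 to 11.2). The second interval is wide and holds the first, and the difference was not tested. In merged bulk RNA fewer expressing cells and less RNA per cell cannot be told apart. The stem cell markers Pou5f1, Nanog, Sox2, Esrrb and Zfp42 stood at 229 to 657 TPM, and the fibroblast markers Col1a1, Col1a2, Col3a1, Thy1 and Postn at 9.35 to 48.7 TPM, so that none of the fibroblast markers was at 0. The part of feeder cells in the methylation values was not tested.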

How the data were processed

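The authors trimmed reads with Trim Galore 0.4.4, aligned M-ATAC and M-ChIP to mm10 with Bismark 0.18.1 and ATAC and ChIP with Bowtie2, and removed low-quality reads and duplicates with SAMtools 1.3. The aligner of the unconverted controls is not given in the sources used here. Peaks were called by the authors with MACS2, and every deposited summit carries a fold (ratio to local background), a score, and p and q as −log10. In the deposited methylation tables every cytosine of the merged replicates has its percent and the read count behind it, methylated and not, so a cytosine at 5 reads moves in steps of 20%. FIMO's score and p-value stand beside the matches in the deposited motif list. The authors' merged expression table gives TPM, and its aligner is not given in the sources used here. The depth of single libraries is not part of these files.

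Motif matches were joined to cytosines by chromosome and start. All 43074 matches equalled the GRCm38 reference sequence. A match took the fold of the highest summit of the peak over it. Counts were tested by Fisher's exact test with Benjamini-Hochberg adjustment, and samples by exact permutation tests. Averages over cytosines weight each cytosine equally, and pooled levels weight reads. Intervals are Wilson or order-statistic 95% intervals, which cover counting error only, as PCR copies are not independent molecules. The scripts were tested on simulated data. The named cytosines were, at each position, the 2 with the highest Wilson lower bound and the 2 with the most reads among those with 0 methylated, and the 3 highest and 3 lowest differences from C12 with at least 10 reads at both. Genes are those whose body holds the site, otherwise those with the nearest start. The register examples, shared sequences and 6-base ends were chosen after their values were seen. The CpGs and lists were chosen with earlier results of these data known. Alternatives were the read minimum, motif p, peaks of both replicates, pooled reads, distinct cytosines, other folds, stricter peaks, the 1 kb promoter and left-out replicates. KLF4 peak lists were not used here. Analyses ran in scipy 1.17.1 and pandas 2.3.3 (python 3.11.15, with numpy 2.4.6), sequences were read with pyfaidx 0.9.0.4, and plots were drawn in matplotlib 3.10.9.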

Additional observations from a re-analysis of the deposited data

How the results depend on the processing

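The mean methylation at positions 17 to 19 followed depth. It was 18.6% with at least 1 read, 9.49% with at least 10 reads, 11.98% with reads pooled, 14.3% with motif p at most 1e-05, 12.1% in peaks of both CTCF M-ChIP replicates and 11.9% without soft-masked matches, the last an alternative chosen after seeing the data. The difference in median fold between low and high cytosines was 1.38 in CTCF M-ChIP sample 2 and 1.51 in CTCF M-ChIP-NC sample 1. The 1 match called against C12 became 0 calls both with at least 10 reads and with motif p at most 1e-05, where fewer matches were tested. The share near a start was 29.2% within 1 kb and 45.8% without soft-masked matches. With bounds of 10% and 90%, 67.0% of cytosines were low and 1.51% high. With at least 10 reads the rank correlation with fold was -0.0453, the share in peaks of CTCF M-ChIP minus CTCF ChIP was -5.76 points, and that minus CTCF M-ChIP-NC was 2.48 points. Apart from the 2 reversals without CTCF M-ChIP replicate 1 given next, directions held under the alternatives tried, with the registers pooled. The cause of these changes was not tested. Contrasts of single registers, lone CpGs and T at position 17 were not rerun with other read minima, motif p or both-replicate peaks. Their dependence on read depth was therefore not tested.

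Leaving out 1 library at a time moved the share in peaks of CTCF M-ChIP minus CTCF M-ChIP-NC between -2.54 and 15.2 points and the gap in fold between -0.110 and 1.36, and both turned negative without CTCF M-ChIP replicate 1. Against CTCF ChIP the ranges were -23.4 to -5.58 points and -1.81 to -0.342. With a replicate block the differences were -14.5 points (exact sign-flip p = 0.5, the smallest possible) and -1.08 against CTCF ChIP, and 6.35 points and 0.624 against the unconverted controls (p = 1). Deviations of same-numbered samples had a rank correlation of 0.0116 between CTCF M-ChIP and CTCF ChIP and 0.121 between CTCF M-ChIP and its controls, and the labels do not say that the numbers mark shared material. A median of 10 reads per cytosine limits each single value.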
